A study of Mus musculus with 11 samples.

Results

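The 10 genes described here belong to the BCL2 family, the proteins that decide at the outer mitochondrial membrane whether a cell survives or dies by apoptosis. They were taken by name from a table of 12932 genes measured by RNA sequencing in alveolar macrophages (AMs), and all 10 were found. Each library was made from 40000 sorted cells of mice aged 9 weeks, and the reads were single-end and 60 bases long. Mature AMs (mAMs, sorted as CD11b-/SiglecF+) of CD11cCre- Rxrabfl/fl mice are called control mAMs. Mature AMs of CD11cCre+ Rxrabfl/fl mice are called RXR-deficient mAMs, and immature AMs of the latter genotype (CD11b+/SiglecF+) are called ImmAMs. Every group therefore carried the floxed Rxra and Rxrb alleles, which encode the retinoid X receptors (RXRs) α and β, and the groups differed in a Cre recombinase driven by the Cd11c promoter. No ImmAM library of CD11cCre- mice was analysed, so in the comparison of ImmAMs with control mAMs the gate and the genotype cannot be told apart. Levels are in CPM, reads scaled to a common library size. The table holds 4 control mAM, 4 RXR-deficient mAM and 3 ImmAM libraries. The comparisons of the study use fewer RXR-deficient mAM libraries than the table holds. RXR-deficient mAM replicate 4 is not among those listed in the study's table of that comparison, so it was left out of the fits and is shown beside them. That choice sets how many genes passed between RXR-deficient and control mAMs, which was 624 of 12889 without it and 337 of 12932 (2.61%) with it.

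Pro-survival members of the family (Mcl1, Bcl2l1, Bcl2a1b and Bcl2 among these genes) hold the pore-forming effectors Bax and Bak1 in check, and the effectors, once freed, open the outer mitochondrial membrane and release cytochrome c. BH3-only members (Bid, Bbc3, Bcl2l11 and Pmaip1) are the sensors of stress, and they either block the pro-survival members or switch on the effectors. Much of the control over these proteins acts on translation, protein stability, cleavage and binding partners, none of which an RNA level shows.

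Between RXR-deficient and control mAMs, 0 of the 10 members passed the test (p-adj under 0.05 in limma), against 4.84% of the 12889 genes tested, while 1 member, Mcl1, had an unadjusted p under 0.05. edgeR called 0 members, with 289 genes higher and 277 lower of 12889. DESeq2 called 1, again Mcl1, but it also called more genes, 602 higher and 750 lower of 12383. ImmAMs differed from control mAMs in 8 members, 6 of them higher and 2 lower, where 48.1% of all genes passed, 22.8% higher and 25.3% lower. Against RXR-deficient mAMs, ImmAMs differed in the same numbers, 6 members higher and 2 lower, where 37.9% of all genes passed, 17.7% higher and 20.2% lower. Without ImmAM replicate 2, 5 members passed in the latter comparison, where 1748 genes were higher and 2262 lower of 12607. The members higher in ImmAMs in both comparisons included Mcl1, Bcl2l1 and Bcl2a1b of the pro-survival members, while the 6 pro-death members split into 2 higher, 2 lower and 2 that did not pass. The call of Bcl2a1b against control mAMs was lost when its near-identical copies were counted with it (adjusted p = 0.0511 in limma). Bcl2, the other pro-survival member, also passed, but it could enter the test only by being higher in ImmAMs. The median log2 difference of the 10 members between ImmAMs and control mAMs was 0.55, beside -0.0025 over all genes. The libraries of ImmAMs and control mAMs did not overlap in 8 members (51.3% of all genes), and those of ImmAMs and RXR-deficient mAMs in 9 (51.2% of all genes). The comparisons of ImmAMs share the 3 ImmAM libraries, so their results are not independent of each other. In sorted bulk samples, fewer cells of a type and less RNA per cell cannot be told apart.

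**Figure D1:**
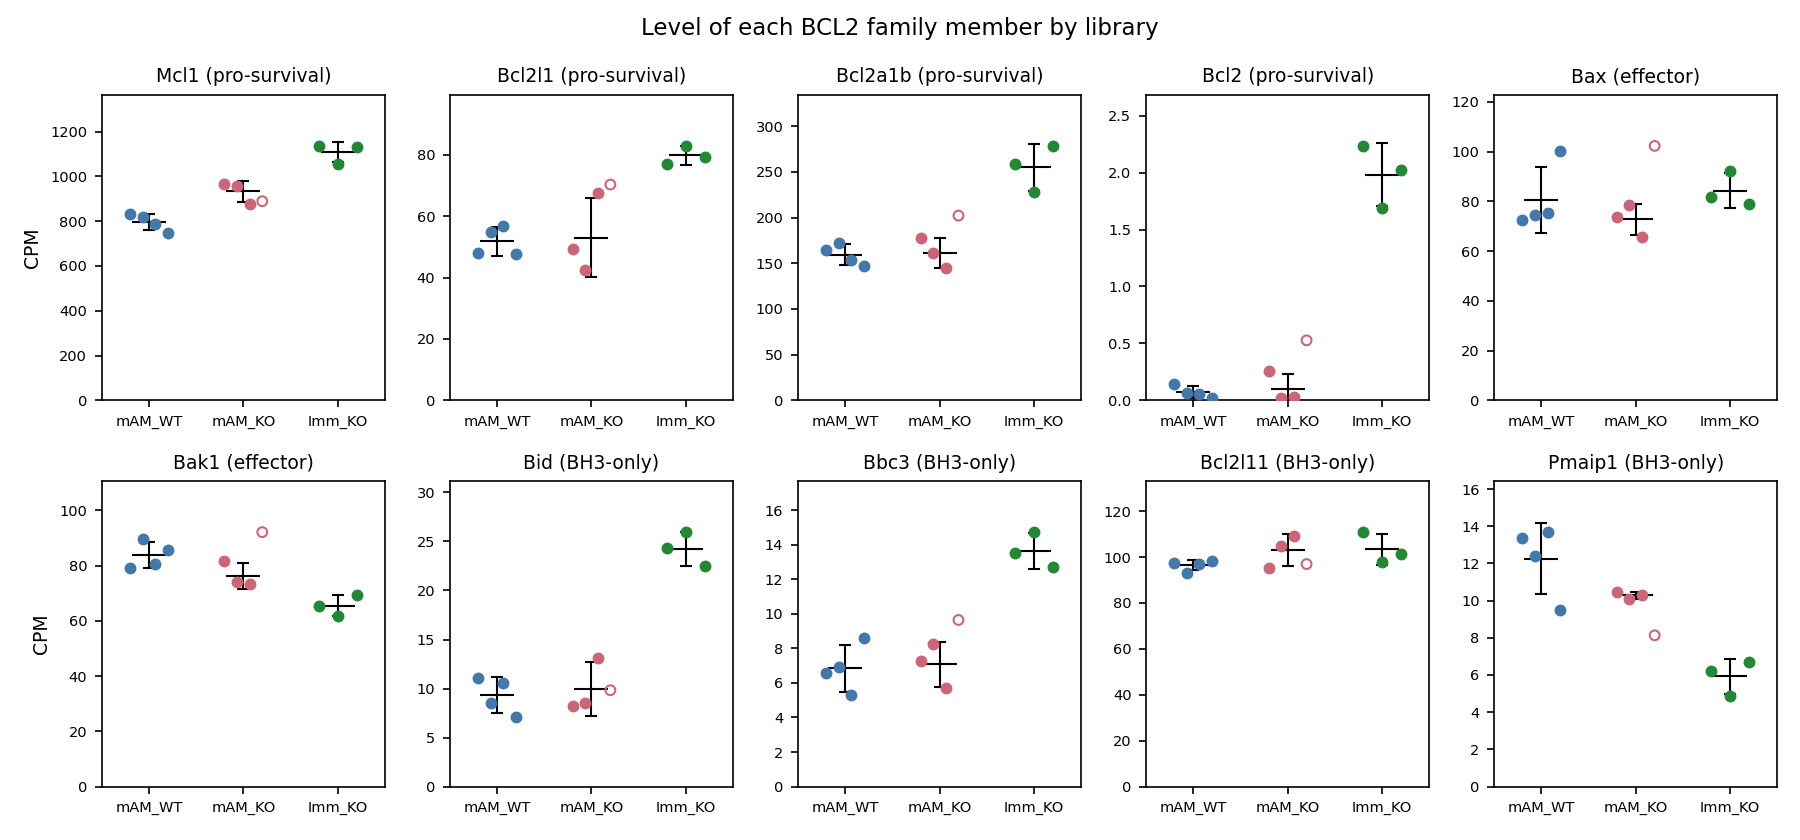
CPM (y axis from 0) of each member in each library, by group (x axis), where mAM_WT is control mAMs, mAM_KO RXR-deficient mAMs and Imm_KO ImmAMs. Filled points are the libraries in the fits, the open point is RXR-deficient mAM replicate 4, and bars give the mean ± SD of the filled points. The ImmAM points lie above all other filled points for Mcl1, Bcl2l1, Bcl2a1b, Bcl2, Bid and Bbc3 and below them for Bak1 and Pmaip1.

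Mcl1 encodes a short-lived pro-survival protein that many myeloid cells need. It was at 832, 817, 790 and 749 CPM in control mAM replicates 1 to 4, at 965, 956 and 877 CPM in RXR-deficient mAM replicates 1 to 3, and at 1136, 1058 and 1131 CPM in ImmAM replicates 2 to 4. The groups lay in that order with no overlap, and RXR-deficient mAM replicate 4, at 889 CPM, also lay above every control library. Mcl1 was the only member whose RXR-deficient and control mAM libraries did not overlap, in a comparison where 20.1% of all genes did not overlap. Its log2 difference there was 0.23 ± 0.065 (SE), with an interval from 0.09 to 0.37 and an adjusted p of 0.0631 in limma, and DESeq2 gave an adjusted p of 0.00989. ImmAMs were higher than control mAMs by 0.48 ± 0.065 on the log2 scale (adjusted p = 5.05e-05 in limma) and higher than RXR-deficient mAMs by 0.25 ± 0.069 (adjusted p = 0.0121). The last adjusted p was 0.0512 without RXR-deficient mAM replicate 3 and 0.05002 without ImmAM replicate 2.

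Bcl2l1 encodes BCL-XL. It was at 47.9, 55.0, 56.8 and 47.7 CPM in control mAMs, at 49.3, 42.5 and 67.5 CPM in RXR-deficient mAMs, and at 77.1, 83.0 and 79.5 CPM in ImmAMs. The ImmAM libraries lay above all others, while RXR-deficient mAM replicate 3 stood apart from replicates 1 and 2, and replicate 4 reached 70.4 CPM. ImmAMs were 1.54 times the control mAMs (log2 difference 0.63 ± 0.13, adjusted p = 0.00154 in limma) and 1.53 times the RXR-deficient mAMs (0.62 ± 0.14, adjusted p = 0.00366). RXR-deficient and control mAMs differed by 0.01 on the log2 scale, with an interval from -0.27 to 0.29.

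Bcl2 itself was close to absent from mAMs. The control mAM libraries held 5, 1, 1 and 0 reads of Bcl2, RXR-deficient mAM replicates 1 to 3 held 5, 0 and 0, and ImmAM replicates 2 to 4 held 37, 36 and 38. The ImmAM libraries stood above every mAM library, and RXR-deficient mAM replicate 4, with 11 reads, stood above the other mAM libraries. Scaled to depth, the pooled ImmAM count was 30.3 times that of control mAMs (95% interval 14.2 to 77.2) and 24.5 times that of RXR-deficient mAMs (10.2 to 76.8), or 10.3 times (6.06 to 18.6) with replicate 4 among them. These exact intervals cover counting error only. Bcl2 passed the filter of 1 CPM in at least 3 libraries through the ImmAMs alone (0 control and 0 RXR-deficient mAM libraries reached it), so it could not have entered the test without being higher there. Without Bcl2, 7 of 9 members passed in each comparison of ImmAMs, 5 of them higher and 2 lower.

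Bcl2a1b encodes a copy of A1, a pro-survival protein prominent in leukocytes. It was at 165, 172, 153 and 147 CPM in control mAMs, at 178, 161 and 145 CPM in RXR-deficient mAMs, and at 259, 227 and 279 CPM in ImmAMs. The ImmAM libraries lay above all others and the mAM groups overlapped, with RXR-deficient mAM replicate 4 between them and the ImmAMs at 202 CPM. ImmAMs were 1.60 times the control mAMs (log2 difference 0.67 ± 0.089, adjusted p = 4.13e-05 in limma) and 1.58 times the RXR-deficient mAMs (0.66 ± 0.096, adjusted p = 0.00013). The mouse genome holds several near-identical copies of this gene on chromosome 9, so a read can fit more than 1 of them. Among the 3 copies in the table, 12 of the 516 coding bases differ. The first 60 coding bases, all in exon 1 (GRCm38, GENCODE vM21), hold 6 of these positions, shown in capitals. This stretch, as long as 1 read, was picked for its many differing positions, so it is not a typical stretch:
Bcl2a1a, chr9:88957051-88957110, plus strand: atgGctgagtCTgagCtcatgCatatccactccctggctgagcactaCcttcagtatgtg
Bcl2a1b, chr9:89199360-89199419, plus strand: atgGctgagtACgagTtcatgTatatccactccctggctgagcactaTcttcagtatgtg
Bcl2a1d, chr9:88731660-88731719, minus strand: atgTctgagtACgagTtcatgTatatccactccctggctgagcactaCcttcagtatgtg

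Over the 516 coding bases, Bcl2a1b was 97.9% identical to Bcl2a1a and 98.8% identical to Bcl2a1d, and 74.9% of the 60-base windows of Bcl2a1b occur in another gene. The authors' counts divide such reads by estimation, so the level of each copy is uncertain. Bcl2a1a and Bcl2a1d moved the other way from Bcl2a1b: in ImmAMs against control mAMs they fell by 0.33 ± 0.082 (adjusted p = 0.00491 in limma) and by 0.28 ± 0.089 (adjusted p = 0.0212) on the log2 scale. Bcl2a1a was at 117, 118, 114 and 112 CPM in control mAMs, at 97.7, 114 and 88.5 CPM in RXR-deficient mAMs, and at 92.1, 87.7 and 95.4 CPM in ImmAMs. The ImmAM libraries of Bcl2a1a lay below every control library and overlapped the RXR-deficient mAMs. Bcl2a1d ranged from 88.7 to 109 CPM in control mAMs, from 88.4 to 93.0 CPM in RXR-deficient mAMs and from 75.8 to 93.4 CPM in ImmAMs. The share of Bcl2a1b in the sum of the copies was 42.4% ± 0.551 (SD, n = 4) in control mAMs, 45.7% ± 2.19 (n = 3) in RXR-deficient mAMs and 59.2% ± 1.66 (n = 3) in ImmAMs. The sum itself was 376 ± 23.1, 353 ± 23.3 and 430 ± 35.7 CPM in the same order. Fitted as 1 gene, it was higher in ImmAMs than in RXR-deficient mAMs by 0.29 on the log2 scale (adjusted p = 0.0142 in limma), and against control mAMs the difference was 0.19 (adjusted p = 0.0511).

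**Figure D2:**
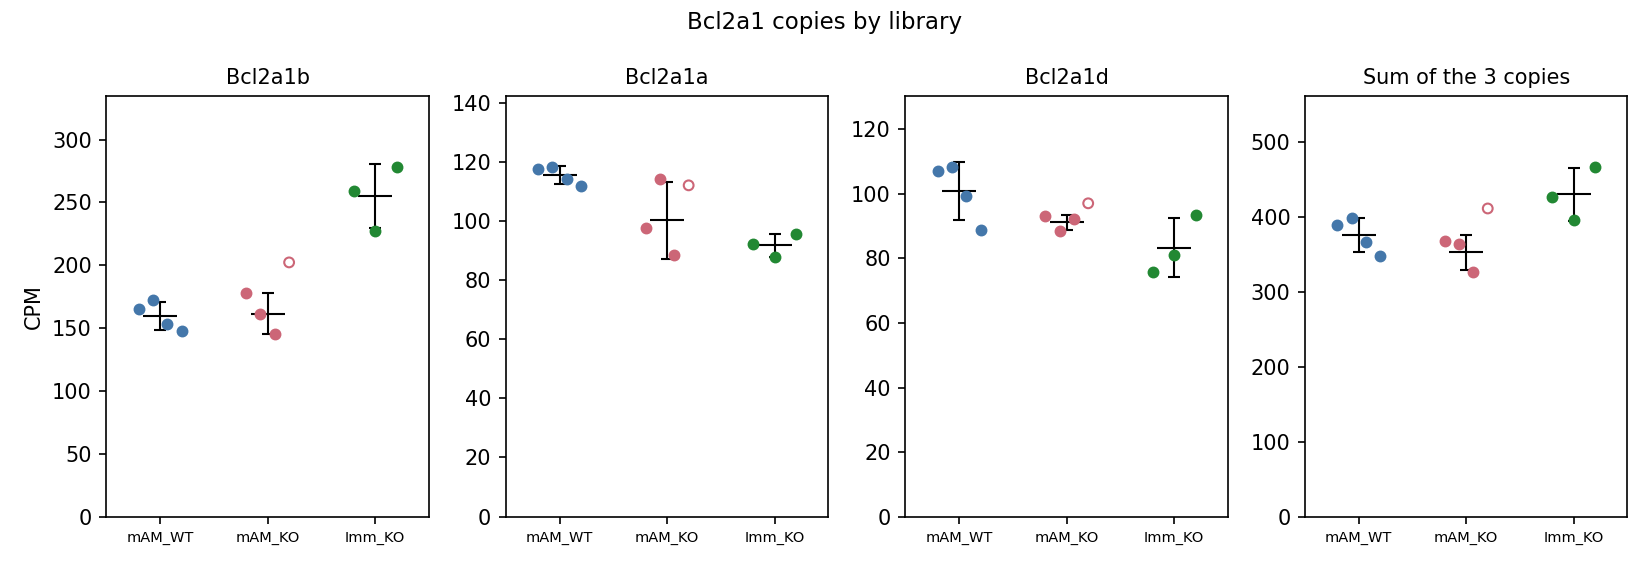
CPM (y axis from 0) of Bcl2a1b, Bcl2a1a, Bcl2a1d and their sum in each library, by group, with mean ± SD of the filled points. The open point is RXR-deficient mAM replicate 4. The ImmAM points lie highest for Bcl2a1b, below the control points for Bcl2a1a, and between 396 and 467 CPM for the sum, where the highest control library reached 399 CPM.

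The effectors, Bax and Bak1, form the pores of the outer mitochondrial membrane. Bax was at 72.4, 74.4, 75.4 and 100.4 CPM in control mAMs, at 73.8, 78.5 and 65.8 CPM in RXR-deficient mAMs, and at 81.8, 92.2 and 78.8 CPM in ImmAMs. Control replicate 4 lay above the rest of its group and above every ImmAM library, and the ImmAMs did not overlap RXR-deficient mAM replicates 1 to 3, although replicate 4 was at 102 CPM. Bax did not pass in any comparison, with log2 differences of -0.14 (interval -0.39 to 0.11) for RXR-deficient against control mAMs, 0.07 (-0.17 to 0.32) for ImmAMs against control mAMs and 0.21 (-0.05 to 0.48) for ImmAMs against RXR-deficient mAMs. Of its 60-base windows, 7.83% also lie in an overlapping gene model, Gm45808.

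Bak1 was at 79.3, 89.7, 80.7 and 85.8 CPM in control mAMs, at 81.8, 74.0 and 73.2 CPM in RXR-deficient mAMs, and at 65.2, 61.7 and 69.3 CPM in ImmAMs. The ImmAM libraries lay below all others, and replicate 4 of the RXR-deficient mAMs was the highest of all at 92.2 CPM. In ImmAMs, Bak1 fell by 0.36 ± 0.075 on the log2 scale against control mAMs (adjusted p = 0.00156 in limma) and by 0.22 ± 0.080 against RXR-deficient mAMs (adjusted p = 0.0431). The latter call was lost in edgeR (adjusted p = 0.0576), in DESeq2 (adjusted p = 0.0537), in limma with median-ratio scaling (adjusted p = 0.0576), with no variance trend (adjusted p = 0.0625) or with a replicate block (adjusted p = 0.083), and when control mAM replicate 3, RXR-deficient mAM replicate 1 or 2, or ImmAM replicate 2 or 3 was left out (adjusted p 0.0512 to 0.159).

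The BH3-only members went in different directions. Bid, whose protein is cut by caspase 8 downstream of death receptors, was at 11.1, 8.51, 10.6 and 7.10 CPM in control mAMs, at 8.19, 8.56 and 13.1 CPM in RXR-deficient mAMs, and at 24.3, 26.0 and 22.5 CPM in ImmAMs. The ImmAM libraries lay far above the mAM libraries, of which RXR-deficient mAM replicate 3 was the highest. Bid rose 2.64-fold in ImmAMs against control mAMs (log2 difference 1.40 ± 0.19, adjusted p = 5.38e-05 in limma) and 2.49-fold against RXR-deficient mAMs (1.32 ± 0.20, adjusted p = 0.000229).

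Bbc3 encodes PUMA, a p53 target that binds every pro-survival member. It was at 6.57, 6.90, 5.31 and 8.62 CPM in control mAMs, at 7.27, 8.26 and 5.68 CPM in RXR-deficient mAMs, and at 13.5, 14.7 and 12.7 CPM in ImmAMs. The mAM groups overlapped throughout, and replicate 4 of the RXR-deficient mAMs, at 9.64 CPM, lay below the ImmAMs. Bbc3 rose 2.02-fold in ImmAMs against control mAMs (log2 difference 1.01 ± 0.18, adjusted p = 0.000564 in limma) and 1.95-fold against RXR-deficient mAMs (0.96 ± 0.20, adjusted p = 0.00183).

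Pmaip1 encodes NOXA, which binds MCL-1 and A1. It was at 13.4, 12.4, 13.7 and 9.50 CPM in control mAMs, at 10.5, 10.1 and 10.3 CPM in RXR-deficient mAMs, and at 6.23, 4.85 and 6.70 CPM in ImmAMs. The ImmAM libraries lay below all others. Pmaip1 fell by 1.05 ± 0.16 on the log2 scale in ImmAMs against control mAMs (adjusted p = 0.000171 in limma) and by 0.81 ± 0.18 against RXR-deficient mAMs (adjusted p = 0.00276). Between RXR-deficient and control mAMs the log2 difference was -0.24, with an interval from -0.59 to 0.12.

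Bcl2l11 encodes BIM, a BH3-only protein that governs the death of many blood cells deprived of growth factors. Its level lay between 93.2 and 111 CPM in all 10 libraries of the fits, and the groups overlapped in every comparison. The log2 differences were 0.09 (interval -0.06 to 0.25) for RXR-deficient against control mAMs, 0.10 (-0.05 to 0.25) for ImmAMs against control mAMs and 0.00 (-0.16 to 0.16) for ImmAMs against RXR-deficient mAMs.

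**Figure D3:**
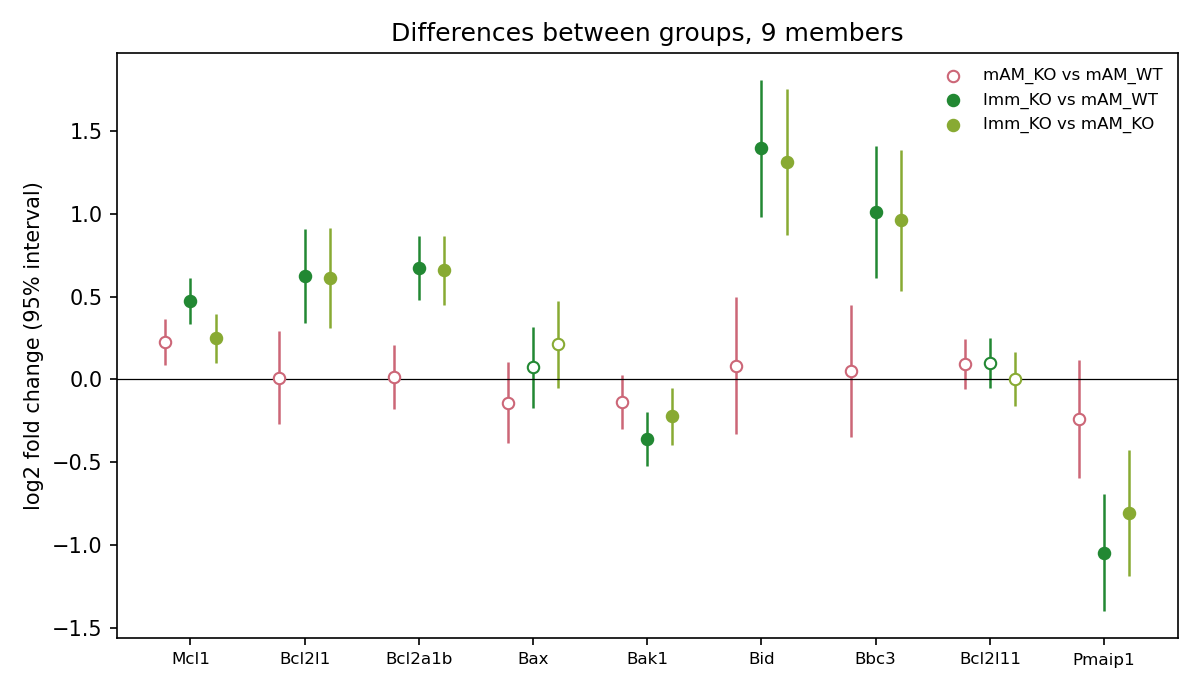
Log2 fold change (y axis) of 9 members (x axis) in the 3 comparisons, from limma, with 95% intervals. Filled points have an adjusted p under 0.05, open points do not, and Bcl2 is left out because its fitted fold depends on the offset added to 0 reads. All RXR-deficient against control points are open, and the points of Bid, Bbc3 and Pmaip1 for ImmAMs lie farthest from 0.

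Levels of different genes were compared per kilobase of joined exons, so that long genes are not favoured. With each Bcl2a1 copy counted by itself, Mcl1 was the highest member in control mAMs at 233 ± 10.6 CPM per kilobase (SD, n = 4), followed by Bcl2a1b at 195 ± 13.7, Bax at 51.2 ± 8.40 and Bak1 at 34.8 ± 1.98, and the libraries of neighbours in this order did not overlap. Bcl2l11 (12.02) and Bcl2l1 (11.3) overlapped, as did Pmaip1 (4.48) with Bbc3 (3.22) and Bbc3 with Bid (2.63), and Bcl2 was last at 0.00782 CPM per kilobase. The order was the same in RXR-deficient mAMs. Bcl2a1a (141) and Bcl2a1d (117) also lay high in control mAMs, and the copies summed to 453, 426 and 521 CPM per kilobase in control mAMs, RXR-deficient mAMs and ImmAMs, above Mcl1 in each group. In ImmAMs, Mcl1 (324) and Bcl2a1b (312) overlapped, Bcl2l1 (17.4) stood above Bcl2l11 (12.9), Bid (6.83) and Bbc3 (6.42) came next, and Pmaip1 (2.17) moved behind them. Mcl1 made up 53.0% of the summed level per kilobase of the 4 pro-survival members in control mAMs, 56.6% in RXR-deficient mAMs and 49.6% in ImmAMs. With Bcl2a1a and Bcl2a1d added to the sum, a choice made after seeing the data, these shares were 33.4%, 38.4% and 37.6%, so both their size and the order of the groups rest on how the copies are counted. With the longest transcript in place of joined exons, Bcl2l1 (20.2) stood above Bcl2l11 (19.2) in control mAMs too.

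**Figure D4:**
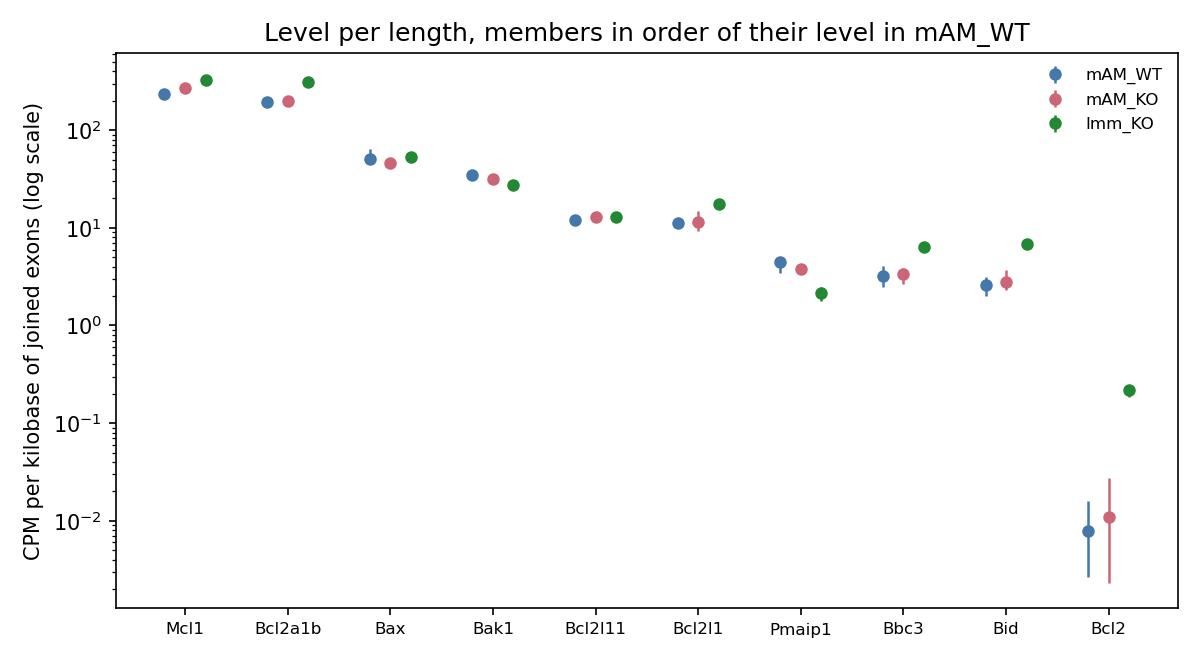
Level of each member in CPM per kilobase of joined exons (y axis, log scale), with members ordered by their level in control mAMs (x axis). Points are group means over 4 control mAM, 3 RXR-deficient mAM and 3 ImmAM libraries, and bars run from the lowest to the highest library. Mcl1 and Bcl2a1b stand highest in all groups, and Bcl2 lies lowest, at 0.217 CPM per kilobase in ImmAMs.

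As a summary of survival against death genes, the mean log2 CPM of the 6 pro-death members was subtracted from that of the 4 pro-survival members in each library. This difference was 0.13, -0.08, -0.15 and -0.57 in control mAMs, 0.52, -0.51 and -0.30 in RXR-deficient mAMs, and 1.37, 1.26 and 1.40 in ImmAMs. The ImmAM libraries stood above all others, and the mAM groups overlapped. The group means were -0.17 ± 0.29 (SD, n = 4), -0.10 ± 0.55 (n = 3) and 1.34 ± 0.074 (n = 3), so ImmAMs exceeded control mAMs by 1.51 and RXR-deficient mAMs by 1.44. Most of that size came from Bcl2. Without it the means were 2.74 ± 0.088, 2.87 ± 0.092 and 3.14 ± 0.054, and ImmAMs exceeded control mAMs by 0.40 and RXR-deficient mAMs by 0.26. The pooled SD of the libraries for these differences was 0.077 and 0.076, and the ImmAM libraries still lay above all others. RXR-deficient mAMs exceeded control mAMs by 0.13 without Bcl2, with a pooled SD of 0.090 and overlapping libraries. Bcl2a1b entered these averages by itself, although the level of each copy is uncertain. Its log2 differences of ImmAMs were 0.67 against control and 0.66 against RXR-deficient mAMs. Those of the summed copies were 0.19 and 0.29, so the size of the averages also rests on how the copies are counted. These averages give each gene the same weight whatever its level and were not tested.

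**Figure D5:**
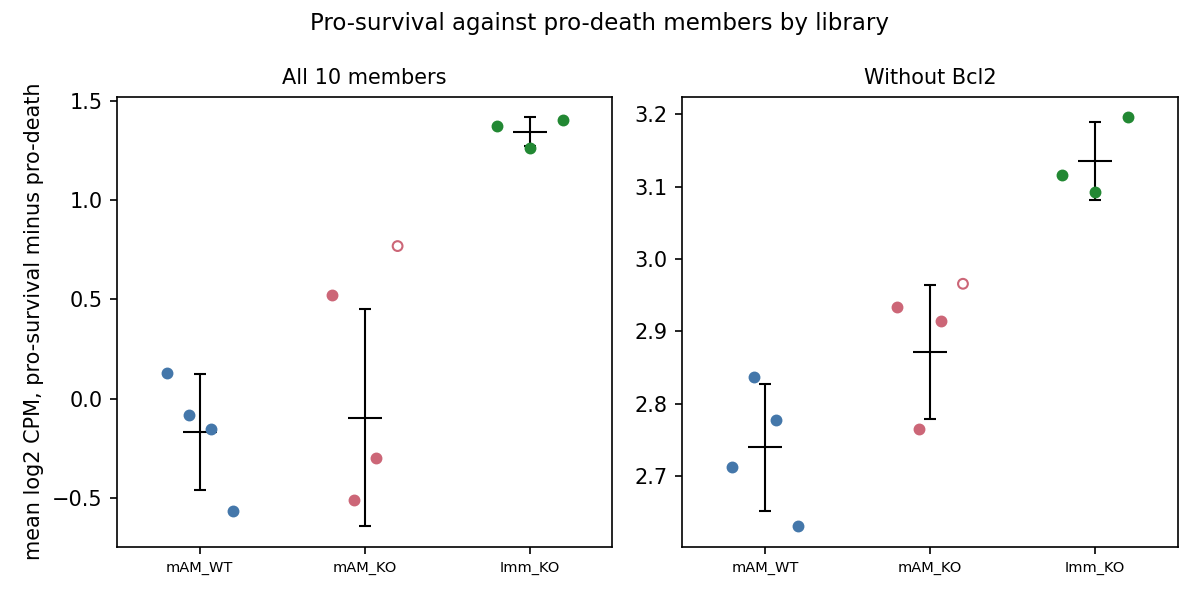
Mean log2 CPM of the pro-survival members minus that of the pro-death members (y axis) in each library, by group, with all 10 members (left) and without Bcl2 (right). Bars give mean ± SD of the filled points, and the open point is RXR-deficient mAM replicate 4, at 0.77 (left) and 2.97 (right). The 3 ImmAM points lie highest in both panels, and the vertical axes differ.

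Other members of the family and the steps after the mitochondrion were followed in 5 lists, of which 3 of 4, 7 of 10, 20 of 20, 14 of 15 and 14 of 15 genes were tested. Of the 3 other pro-survival genes tested, 1 was higher and 2 were lower in ImmAMs than in control mAMs, the latter being Bcl2a1a and Bcl2a1d. The higher one was Bcl2l2, which encodes BCL-W, at a log2 difference of 0.37 ± 0.099 (adjusted p = 0.0075 in limma). Of the 7 other family genes tested, 0 were higher and 5 lower (22.8% and 25.3% of all genes). Among them, Bok, a BAX-like gene, was at 3.06 ± 1.10 CPM in control mAMs, 1.25 ± 0.455 CPM in RXR-deficient mAMs and 0.119 ± 0.158 CPM in ImmAMs. The highest ImmAM library held Bok at 0.301 CPM, so it passed the filter of 1 CPM through mAM libraries alone. Like Bcl2 in the other direction, Bok could enter the test only by being higher in mAMs, and the counts of lower genes include it. Bnip3l, a mitophagy receptor, fell by 0.81 ± 0.078 (adjusted p = 2.21e-06) and Bcl2l13 by 0.43 ± 0.095 (adjusted p = 0.00237). In RXR-deficient against control mAMs, 0 of these 10 genes passed (4.84% of all genes). In ImmAMs against RXR-deficient mAMs 0 were higher and 3 lower (17.7% and 20.2% of all genes), namely Bok, Bnip3l and Bcl2l13.

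Of the 20 genes of the apoptosome, caspases and IAPs (inhibitors of apoptosis proteins), 2 were higher and 11 lower in ImmAMs than in control mAMs, where 22.8% of all genes were higher and 25.3% lower. Those higher were Birc3, which encodes cIAP2, by 0.83 ± 0.10 (adjusted p = 2.33e-05 in limma), and Htra2, a mitochondrial protease, by 0.59 ± 0.11 (adjusted p = 0.000626). The largest fall was that of Birc5, by 3.46 ± 0.23 on the log2 scale (adjusted p = 7.13e-08). Birc5 encodes survivin, which also acts in cell division. Endog, a mitochondrial nuclease, fell by 0.81 ± 0.27 (adjusted p = 0.0252) and Aifm1, a mitochondrial flavoprotein, by 0.64 ± 0.082 (adjusted p = 3.04e-05). In RXR-deficient against control mAMs, 0 of the 20 passed (4.84% of all genes). In ImmAMs against RXR-deficient mAMs 2 were higher, again Htra2 and Birc3, and 8 lower (17.7% and 20.2% of all genes). Birc5 fell by 3.35 and Aifm1 fell by 0.63 on the log2 scale.

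In the death receptor pathway, 4 of 14 genes passed between RXR-deficient and control mAMs (4.84% of all genes). Fas, a death receptor, was higher by 0.56 ± 0.14 (adjusted p = 0.0461 in limma) and Cflar, which encodes the caspase 8 inhibitor c-FLIP, by 0.34 ± 0.077 (adjusted p = 0.0311). Ripk3, the kinase of necroptosis, fell by 1.37 ± 0.32 (adjusted p = 0.0326) and Tradd, an adaptor of TNF receptor 1, fell by 0.45 ± 0.11 (adjusted p = 0.0388). With RXR-deficient mAM replicate 4 in the fit, 2 of the 14 passed (2.61% of all genes), namely Fas (adjusted p = 0.0450) and Ripk3 (adjusted p = 0.0248), while the calls of Cflar (adjusted p = 0.189) and Tradd (adjusted p = 0.339) were lost. In that library Cflar was at 94.6 CPM, within the control range of 88.2 to 100.4 CPM, and Tradd at 41.5 CPM, within the control range of 32.9 to 44.8 CPM. In ImmAMs against control mAMs, 3 were higher and 4 lower (22.8% and 25.3% of all genes), with Fas at 0.76 ± 0.14 (adjusted p = 0.000745), Ripk3 at -1.35 ± 0.32 (adjusted p = 0.0034) and Tradd at -0.71 ± 0.11 (adjusted p = 0.000166). Casp8, the protease that cuts BID, fell by 0.64 ± 0.063 in ImmAMs against control mAMs (adjusted p = 2.48e-06), where Bid rose, while Cflar rose by 0.67 ± 0.077 (adjusted p = 1.17e-05) and Tnfrsf1b, the gene of TNF receptor 2, rose by 0.68 ± 0.072 (adjusted p = 5.08e-06). Against RXR-deficient mAMs, 4 of the 14 were higher in ImmAMs and 2 lower (17.7% and 20.2% of all genes). Tnfsf10, which encodes the death ligand TRAIL, rose there by 0.79 ± 0.22 (adjusted p = 0.013), and Casp8 and Ripk1 fell by 0.79 ± 0.067 and 0.61 ± 0.065 (adjusted p = 1.15e-06 and 8.32e-06).

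Of 14 known regulators of the members, 1 passed between RXR-deficient and control mAMs (4.84% of all genes). It was Stat5a, which fell by 0.51 ± 0.11 (adjusted p = 0.0214 in limma). STAT5 proteins carry the GM-CSF signal that alveolar macrophages need. In ImmAMs against control mAMs, 3 regulators were higher and 3 lower (22.8% and 25.3% of all genes). Stat5a fell there by 1.15 ± 0.11 (adjusted p = 1.73e-06), Stat5b by 0.51 ± 0.067 (adjusted p = 3.29e-05) and E2f1 by 0.71 ± 0.10 (adjusted p = 8.45e-05), while Ddit3, a stress factor that encodes CHOP, rose by 0.82 ± 0.17 (adjusted p = 0.00139), Foxo1 by 0.57 ± 0.089 (adjusted p = 0.000155) and Foxo3 by 0.56 ± 0.094 (adjusted p = 0.000292). Against RXR-deficient mAMs the numbers were again 3 higher and 3 lower (17.7% and 20.2% of all genes), with Ddit3 at 0.70, Foxo3 at 0.50, Foxo1 at 0.35, Stat5b at -0.32, E2f1 at -0.43 and Stat5a at -0.64 on the log2 scale.

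RefSeq (GRCm38.p6) lists 14 promoters of 9 members, read here as the 250 bases before each start, and Pmaip1 was not matched. The RXR element DR1, which is AGGTCA followed by 1 base and AGGTCA again, occurred in 0 of the 14 on either strand, and in 0.0335% of the 32851 promoters in the table. The STAT consensus TTCNNNGAA occurred in 0 of 14 (7.02% of all), AGGTCA alone in 1 of 14 (14.0% of all) and the κB consensus in 2 of 14 (5.0% of all). The promoters with a κB match belong to Bcl2l1 and Bbc3, which were both higher in ImmAMs, and are shown for that reason with the match in capitals. Mcl1, Bid, Bcl2 and Bcl2a1b were also higher there and had no κB match. The other promoters of Bcl2l1 and Bbc3 had none either, and the AGGTCA match lay in another promoter of Bcl2l1. In Bbc3 the capitals cover a pair of overlapping matches on the opposite strand:
Bcl2l1, chr2:152830718-152830967, minus strand: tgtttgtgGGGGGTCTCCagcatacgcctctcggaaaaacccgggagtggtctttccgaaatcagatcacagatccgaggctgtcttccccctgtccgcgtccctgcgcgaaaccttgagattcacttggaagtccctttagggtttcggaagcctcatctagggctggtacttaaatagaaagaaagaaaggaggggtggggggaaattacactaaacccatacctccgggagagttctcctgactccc
Bbc3, chr7:16309333-16309582, plus strand: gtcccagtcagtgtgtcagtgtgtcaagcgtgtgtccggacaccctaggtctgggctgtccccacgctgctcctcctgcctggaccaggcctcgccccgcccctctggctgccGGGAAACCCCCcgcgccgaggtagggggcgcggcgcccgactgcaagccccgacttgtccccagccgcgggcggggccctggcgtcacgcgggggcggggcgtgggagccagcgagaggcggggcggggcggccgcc
A match of letters is a description of these windows, and binding was not measured in this table.

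The levels of the deleted and gating genes bear on all of these values. Rxra was at 344 ± 29.0 CPM in control mAMs, 344 ± 9.12 CPM in RXR-deficient mAMs and 291 ± 12.2 CPM in ImmAMs, and Rxrb at 59.8 ± 9.29, 46.1 ± 6.79 and 33.5 ± 1.64 CPM. In a two-sided exact permutation test, neither differed between RXR-deficient and control mAMs past 0.05 (p = 1 and p = 0.114, where the smallest possible is 0.0286). The values are per gene, so exons that Cre leaves in place are counted too, and they do not measure the deletion. Siglecf ranged from 244 to 264 CPM in control mAMs, from 198 to 241 CPM in RXR-deficient mAMs and from 19.3 to 19.7 CPM in ImmAMs, although the label of the ImmAM gate is SiglecF+. Itgam (CD11b) was at 3.52 to 3.85, 3.93 to 9.95 and 168 to 174 CPM. Itgax (CD11c) was at 1520 CPM or more in every mAM library and at 1401 to 1453 CPM in ImmAMs. The summed level of 4 of 6 interstitial macrophage markers was 0.643 to 1.23 CPM in control mAMs, 2.25 to 9.09 CPM in RXR-deficient mAMs and 205 to 223 CPM in ImmAMs, and that of 4 of 6 monocyte markers 11 to 17.3, 12.5 to 25.2 and 85.4 to 94.2 CPM, with Ly6c2, Plac8, Lyve1 and Folr2 not in the table. The summed 9 alveolar macrophage markers, which include Siglecf, ranged from 18509 to 28691 CPM over all groups. That sum does not show how each marker moved, since the fall of Siglecf in ImmAMs is not visible in it. Dendritic cell markers (2 of 6 in the table) summed to 5.40 to 7.24, 6.16 to 8.12 and 20.7 to 24.1 CPM, neutrophil markers (5 of 6) to 30.7 to 39.5, 31.6 to 40.6 and 51.7 to 61.9 CPM, and the 1 of 5 B cell markers present was at 0.417 to 1.60, 0.139 to 0.998 and 0.984 to 1.34 CPM. The monocyte, interstitial macrophage, dendritic cell and neutrophil sums were thus higher in every ImmAM library than in every fitted mAM library. None of the markers listed for T and NK cells, eosinophils, alveolar type 2 cells or endothelial cells was in the table. The part of other cells in the differences of ImmAMs was not tested.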

How the data were processed

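RNA sequencing libraries of sorted alveolar macrophages were grouped by their labels (4 control mAM, 4 RXR-deficient mAM, 3 ImmAM). The labels' design names lung digestion and the paper's methods lavage. The authors trimmed reads with Cutadapt (reads under 30 bases discarded), mapped them to the GRCm38 transcriptome, estimated counts with RSEM 1.3.1 and scaled them by TMM in limma, with a floor of 1 CPM in 3 samples or more for a gene to stay. The deposited values are CPM on TMM-scaled library sizes. In every library 100% of them were whole reads plus 0.5, within 0.01 of a read, times a fixed step, and the reads so recovered ranged from 16659960 to 37873532 per library. Rows without a symbol (15) have gene identifiers and stayed in.

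Log2 CPM, with no further pseudocount, of 10 libraries were fitted with limma 3.58.1 (R 4.3.3; 3 group means, moderated two-sided tests, variance trend on) to the 12889 genes that reached 1 CPM in 3 of these libraries or more, with Benjamini-Hochberg adjustment over all of them and a threshold of 0.05. edgeR 4.0.16 (quasi-likelihood) and DESeq2 1.42.0 were run on the recovered reads. Each fit was first tested on simulated data. Within groups, pairs of libraries differed by more than sampling noise (chi-square per degree of freedom 8.33 to 46.3). The study's figure legends count the libraries of the fits as mice (4 control mAM, 3 RXR-deficient mAM and 3 ImmAM). No source used here says that replicates of a group came from separate sorts, so p-values measure the spread between these libraries. Lengths and read sharing come from GENCODE vM21, which holds 12919 of the 12932 genes.

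The members, the gene lists and the tests were chosen with earlier results of these data known. Named were all members, the other Bcl2a1 copies, Rxra, Rxrb and the gating genes, and from each list up to 3 called genes with the largest rise and up to 3 with the largest fall in each comparison. A gene chosen in this way is not reported here, although counts of its list include it. The alternatives tried were a fit of all 11 libraries, pseudocounts of 0.5 and 1 CPM, no filter, a filter at 5 CPM, other scalings, only the groups compared, no variance trend, robust eBayes, edgeR, DESeq2, a replicate block, a fold of at least 1.5, each library left out in turn, and, chosen after seeing the data, the Bcl2a1 copies summed, in the fit and in the levels per length.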

Additional observations from a re-analysis of the deposited data

Results flagged for a closer look

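In the 4 control mAM libraries, Bax in replicate 4, at 100.4 CPM, lay farther from the others (72.4 to 75.4 CPM) than a Dixon test at 95% allows. In the 4 RXR-deficient mAM libraries, Pmaip1 in replicate 4, at 8.13 CPM against 10.1 to 10.5 CPM, did so too. Of 26 such groups examined these were the only ones, and chance gives about 1 in 20.

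RXR-deficient mAM replicate 4, which was left out of the main fit, was above the highest control mAM library in 7 members. The share of all genes for which this held was not computed, so the count is not a result about the family. It held Bcl2 at 0.527 CPM (highest control 0.145), Bcl2l1 at 70.4 CPM (56.8), Mcl1 at 889 CPM (832), Bcl2a1b at 202 CPM (172), Bax at 102 CPM (100.4), Bak1 at 92.2 CPM (89.7) and Bbc3 at 9.64 CPM (8.62).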

How the results depend on the processing

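In RXR-deficient against control mAMs, 0 members passed under every alternative but 3: no TMM factor, robust eBayes and DESeq2 called 1, which was Mcl1. Among all genes, 308 were higher and 283 lower with no TMM factor, and 326 and 387 with robust eBayes. DESeq2 called 602 higher and 750 lower. Between ImmAMs and control mAMs, 6 to 8 members passed under all alternatives, and 7 to 8 with a library left out. Between ImmAMs and RXR-deficient mAMs, 6 to 8 passed, and 5 to 8 with a library left out, with 5 without ImmAM replicate 2. The number of all genes called moved with the setting too. In the latter comparison it was 2283 higher and 2608 lower of 12889 in the main fit. Without ImmAM replicate 2 it was 1748 higher and 2262 lower of 12607. At a fold of at least 1.5, 6 members passed in each comparison of ImmAMs, and the share of all genes at that fold was not computed.

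Signs that turned belonged to differences that passed in no fit. For RXR-deficient against control mAMs, Bcl2 was at 0.67 with all 11 libraries, 0.0545 and 0.0335 with pseudocounts of 0.5 and 1 CPM, 0.36 in edgeR and 0.41 in DESeq2, and from -1.28 to 0.51 with a library left out. Leaving out a library gave -0.18 to 0.16 for Bcl2l1, -0.0571 to 0.0878 for Bcl2a1b, -0.13 to 0.21 for Bid and -0.0704 to 0.20 for Bbc3. The summed Bcl2a1 copies were at -0.0915. Bcl2l11 in ImmAMs against RXR-deficient mAMs ranged from -0.0515 to 0.0459 with a library left out.

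The difference between pro-survival and pro-death members, ImmAMs minus control mAMs, was 1.51. It was 0.78 and 0.63 with pseudocounts of 0.5 and 1 CPM, 1.86, 0.40, 1.87, 1.92, 1.75 and 1.27 without Bcl2a1b, Bcl2, Bcl2l1, Mcl1, Bid and Pmaip1, and 1.38 to 1.61 with a library left out. ImmAMs minus RXR-deficient mAMs it was 0.66 and 0.51 with these pseudocounts, 0.26 without Bcl2, 1.92 without Mcl1 and 1.23 to 1.75 with a library left out. RXR-deficient minus control mAMs it ranged from -0.24 to 0.28 with a library left out. In control mAMs, Mcl1 made up 52.0% of the pro-survival sum with the longest transcript and 33.4% with all Bcl2a1 copies in it. With all 11 libraries, 2 death receptor genes passed between RXR-deficient and control mAMs (2.61% of all genes). Rxra was lower in ImmAMs than in RXR-deficient mAMs by 0.24 without replicate 4 (exact permutation p = 0.1). It was at -0.31 with all 11 libraries (exact permutation p = 0.0286). Each p is the smallest possible for its number of libraries, so the smaller p reflects the added library alone.

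Libraries with the same replicate number showed no shared deviation from their group means (correlations -0.13 to 0.06). These values cannot tell whether such libraries came from the same mouse. With a replicate block, 0 members passed between RXR-deficient and control mAMs, 8 between ImmAMs and control mAMs and 7 between ImmAMs and RXR-deficient mAMs. Of 12889 genes, 109 were higher and 65 lower, 2696 and 2990, and 1830 and 2064 in the same order of comparisons. Bak1 lost its call between ImmAMs and RXR-deficient mAMs (adjusted p = 0.083 in limma). Bcl2l1, Bid and Bcl2l11 differences near 0 turned to -0.00436, -9.92e-05 and -0.0157. At these depths Bcl2 in mAMs, at 0 to 5 reads in the fitted libraries, cannot be ranked.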
